A study of Mus musculus with 4 samples.

Results

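The 78 genes described here are the mouse genes whose symbol begins with Mrpl or Mrps followed by a number, which name proteins of the mitochondrial ribosome. They were taken by that symbol from the 22063 genes listed in the deposited count table, and comprised 49 Mrpl and 29 Mrps genes. The symbol alone decided which genes belong. RNA-sequencing had been made from 4 libraries of TKPTS cells, a line of mouse renal proximal tubular epithelial cells that the sample labels call TKPT. All the cells had been kept for 24 h at 1% O2 and then returned to normal oxygen for 12 h, so no library of unstressed cells entered the comparison. The libraries labelled si-NC (replicates 2 and 3, genotype given as WT) came from cells transfected with a scrambled siRNA. The libraries labelled si-Itgb6 (replicates 1 and 3, genotype given as an Itgb6 knockdown) came from cells transfected with an siRNA against Itgb6, the gene of the integrin beta 6 chain. The cells are 1 line. The methods speak of biologically independent replicates for the work in general, without saying how these libraries were grown, so the p-values measure the spread between these libraries, which may be in part technical.

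The mitochondrial ribosome translates the messengers that are transcribed from mitochondrial DNA, all of which encode subunits of the respiratory chain and ATP synthase. Its ribosomal RNAs are made inside the organelle, whereas its proteins are encoded in the nucleus, made in the cytosol and imported. Some of these proteins descend from those of bacterial ribosomes and others were added in the mitochondrial lineage. The proximal tubule reabsorbs solutes at a high energy cost and is among the tissues richest in mitochondria, and hypoxia followed by reoxygenation is used to model the injury it suffers in ischaemia.

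The library totals lay between 15435074 and 17220281 counts, and TMM scaling factors between 0.987 and 1.01. Itgb6 itself, the targeted gene, was at 17.5 and 16.4 CPM (read counts scaled to the size of the library, with TMM factors) in si-NC replicates 2 and 3, and at 18.0 and 15.8 CPM in si-Itgb6 replicates 1 and 3. The groups overlapped, with a log2 fold change of -0.0051 ± 0.13 (SE, n = 2 per group; 95% interval -0.27 to 0.26), so the libraries are named by their labels throughout. Among markers fixed for the tubule, Slc34a1, Slc5a2 and Slc22a6 had no count in any library and Lrp2 lay between 0.129 and 1.03 CPM. The water channel gene Aqp1 of the proximal tubule list was higher in si-Itgb6 (log2 fold change 0.59 ± 0.10). The general renal epithelial genes Pax8, Cdh16, Cdh1, Epcam, Krt8 and Krt18 passed the filter on low counts. Of these, the keratin gene Krt8 (log2 fold change -0.20, adjusted p = 0.0088) and the adhesion genes Epcam (-0.15, unadjusted p = 0.0052) and Cdh1 (-0.14, unadjusted p = 0.011) were below their si-NC values in both si-Itgb6 libraries, by less than 1.2-fold. Of 7 macrophage markers, 3 passed the filter and 0 were called by edgeR or DESeq2. They were Cd68 (98.2 to 114 CPM, log2 fold change -0.15, unadjusted p = 0.040), Csf1r (22.2 to 27.5 CPM) and Cd14 (8.40 to 11.5 CPM). Over these 3 genes log2 fold changes ran from -0.15 to 0.17, with 1 above 0 and 2 below. Ptprc, Adgre1, Itgam and Lyz2 stayed at or under 0.711 CPM. The macrophage list, most of it Cd68, summed to 141 and 151 CPM in si-NC and to 136 and 132 CPM in si-Itgb6. The part of the shifts in these marker genes in the results on members was not tested. The 5 fibroblast markers summed to between 0 and 2.65 CPM and the 5 endothelial markers to between 2.78 and 4.25 CPM. In bulk RNA, fewer cells of a type and less RNA per cell cannot be told apart.

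The promoters of the members bear on how these genes are driven, since nuclear respiratory factor 1 (NRF1), the ETS-family factor GABP (also called NRF2) and YY1 are known activators of nuclear genes for mitochondrial proteins. A RefSeq promoter window (mouse build GRCm38.p6, 250 bases before to 50 after the start of transcription) was held for 69 of the 78 genes, in 75 windows. The first pair printed belongs to the genes with the largest increase and the largest decrease, Mrps18b and Mrpl17, the third to Mrps27, which carries an ETS and a YY1 core, and the last to Mrpl46, whose window overlaps that of Mrps11. Capitals mark matches on either strand to the NRF1 core GCGCNTGCG, the ETS core CCGGAAG, the YY1 core AAGATGGCG or the E-box CACGTG, where N is any base.
Mrps18b, chr17:35916391-35916690, minus strand: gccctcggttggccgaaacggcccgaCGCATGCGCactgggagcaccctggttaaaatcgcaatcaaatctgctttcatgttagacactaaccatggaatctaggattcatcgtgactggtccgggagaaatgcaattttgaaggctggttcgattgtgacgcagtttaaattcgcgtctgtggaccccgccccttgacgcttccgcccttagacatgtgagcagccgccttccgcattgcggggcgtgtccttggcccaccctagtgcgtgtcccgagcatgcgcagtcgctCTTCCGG
Mrpl17, chr7:105811038-105811337, minus strand: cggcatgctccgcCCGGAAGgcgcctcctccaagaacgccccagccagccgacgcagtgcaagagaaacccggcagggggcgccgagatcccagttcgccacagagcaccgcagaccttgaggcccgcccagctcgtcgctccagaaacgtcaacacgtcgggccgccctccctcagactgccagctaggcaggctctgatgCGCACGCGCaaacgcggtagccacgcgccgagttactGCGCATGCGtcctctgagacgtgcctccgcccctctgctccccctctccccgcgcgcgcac
Mrps27, chr13:99344536-99344835, plus strand: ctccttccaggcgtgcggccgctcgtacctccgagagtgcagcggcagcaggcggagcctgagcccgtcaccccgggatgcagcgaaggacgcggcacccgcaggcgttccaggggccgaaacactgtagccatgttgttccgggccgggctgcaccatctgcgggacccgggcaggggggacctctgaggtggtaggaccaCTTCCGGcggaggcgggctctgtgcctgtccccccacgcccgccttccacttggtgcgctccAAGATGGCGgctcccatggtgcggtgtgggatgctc
Mrpl46, chr7:78783040-78783339, minus strand: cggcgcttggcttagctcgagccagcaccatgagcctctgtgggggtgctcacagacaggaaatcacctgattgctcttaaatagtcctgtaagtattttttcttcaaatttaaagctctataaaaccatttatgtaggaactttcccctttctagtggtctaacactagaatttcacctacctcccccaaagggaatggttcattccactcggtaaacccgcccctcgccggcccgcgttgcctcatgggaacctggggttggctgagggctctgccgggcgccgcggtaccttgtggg

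In the Mrps18b window an NRF1 core began 224 bases before the RefSeq start and an ETS core began at base 44 of the RefSeq transcript. GENCODE places the start of this gene at 35916389, just outside the window, so by GENCODE both cores lie before the start. The Mrpl17 window held NRF1 cores whose first base lay 48 and 11 bases before the start, and an ETS core 237 bases before it. In the Mrps27 window the ETS core lay 48 bases before the start and the YY1 core began at base 15 of the transcript. No core of the 4 kinds was found in the Mrpl46 window, whereas its neighbour Mrps11 carried a YY1 core in a window that shares 141 bases with it. GENCODE places the Mrpl46 start at 78783531, outside that window, and no Mrpl46 window was held around that start.

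Over all members, an ETS core was present in 26 of 75 windows (34.7%), against 17.9% of the 11956 windows of genes tested and 8.86% of all 32851 windows. An NRF1 core was present in 18 of 75 windows (24.0%), against 13.4% and 6.31%. The YY1 core was found in 8 windows (10.7%), against 3.09% and 1.4%, and the E-box in 7 (9.33%), against 9.91% and 7.15%. At least 1 of the ETS and NRF1 cores was in 37 windows (49.3%), against 28.5% of the windows of genes tested. The median GC content was 58.7% in the windows of members, 61.0% in those of genes tested and 52.7% in all windows. Mrpl2, Mrpl48 and Mrps16 have several windows each, which overlap for Mrpl2 and for Mrps16. Matches are letters only, and binding was not measured.

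**Figure D1:**
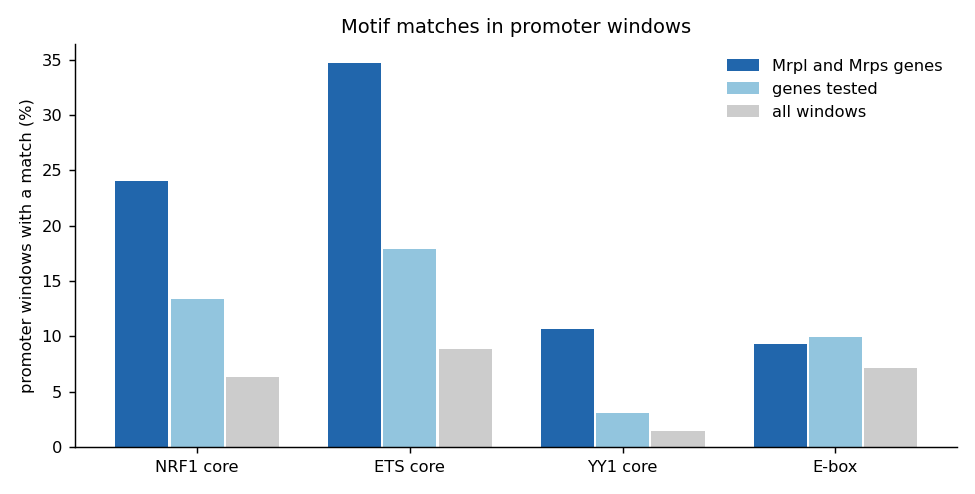
Share of RefSeq promoter windows (%) with at least 1 match to each of 4 motif cores, for the 75 windows of Mrpl and Mrps genes, the 11956 windows of genes tested and all 32851 windows. The ETS, NRF1 and YY1 cores were present in a larger share of member windows, and the E-box was not.

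Many members also lie head to head with another gene. A protein-coding start on the opposite strand lay within 1000 bases for 33 of the 78 genes (42.3%), against 1970 of the 11693 protein-coding genes tested (16.8%), in the GENCODE vM21 annotation of GRCm38. In 18 of these 33 cases the genes point away from each other, and in 15 the starts overlap. Several neighbours are themselves genes of mitochondrial proteins. Mrps12 lies 172 bases from Sars2 (mitochondrial seryl-tRNA synthetase), Mrps27 lies 81 bases from Ptcd2 (a pentatricopeptide repeat protein), and Mrpl36 and Mrpl47 overlap the starts of the complex I genes Ndufs6 and Ndufb5. Mrpl43 overlaps the start of Twnk (the mitochondrial DNA helicase), and Mrps11 and Mrpl46 encode proteins of different subunits from starts that overlap in GENCODE. These distances and arrangements are those of GENCODE, and the RefSeq windows printed above place the starts of Mrpl46 and Mrps18b elsewhere. By the RefSeq windows, Mrps11 and Mrpl46 point away from each other instead. Of the 33 neighbours, 30 passed the filter on low counts, 1 had an unadjusted p under 0.05 and 0 were called, by edgeR or by DESeq2. Ppp1r10, 45 bases from Mrps18b, had a log2 fold change of 0.31 ± 0.20 (unadjusted p = 0.13) beside 0.26 ± 0.08 for Mrps18b. Sars2 had -0.17 ± 0.16 (unadjusted p = 0.29) beside -0.15 ± 0.16 for Mrps12. Other pairs differed, as with Helq (0.04 ± 0.14) beside Mrps18c (0.23) and Tcp1 (0.08 ± 0.05) beside Mrpl18 (-0.05). The neighbour with an unadjusted p under 0.05 was Mtbp, at 0.20 ± 0.07 beside 0.06 for Mrpl13. Whether neighbours change together was not tested. The reads carry no strand, and exons of 33 members overlap another annotated gene, 22 of them a gene listed in the count table, so reads of those overlaps cannot be assigned to 1 gene with certainty.

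All 78 genes were expressed and all passed the filter on low counts, with between 75 and 3873 counts per gene and library. Their level was read from the deposited FPKM values, which take transcript length into account. The mean FPKM over the 4 libraries ran from 3.90 for Mrps26 to 155.6 for Mrpl38, a 39.9-fold range, with a median of 38.9. Of the 78 genes, 51 lay within 2-fold of that median. The median was 43.0 FPKM over Mrpl genes and 32.8 FPKM over Mrps genes. By comparison, the median mean FPKM was 9.07 over all 11727 genes tested, 101 over 78 nuclear genes of oxidative phosphorylation subunits and 1092 over 80 cytosolic ribosomal protein genes.

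The 5 highest members by FPKM all belonged to the large subunit. Mrpl38 was at 166 and 159 FPKM in the si-NC libraries and at 150 and 147 FPKM in the si-Itgb6 libraries, and lay above every value of the next gene. Mrpl24, a protein near the exit of the nascent peptide tunnel, had 126 and 110 FPKM in si-NC and 107 and 122 FPKM in si-Itgb6. Mrpl30 had 122 and 113 against 109 and 115 FPKM, and these genes could not be ordered between them. Mrpl45, whose protein holds the ribosome to the inner membrane, had 88.5 and 92.2 against 92.04 and 90.5 FPKM. Mrpl14 followed with 88.9 and 89.4 against 89.2 and 91.8 FPKM, so that its values overlapped those of Mrpl45.

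The 5 lowest were Mrps16 (7.62 ± 0.64 FPKM, SD, n = 4), Mrpl41 (6.61 ± 0.91), Mrpl47 (6.36 ± 0.62), Mrpl57 (5.61 ± 0.89) and Mrps26 (3.90 ± 0.41). Mrps16 is a bacterial-type protein of the small subunit, and Mrpl41, Mrpl57 and Mrps26 are found in mitochondria and not in bacteria. Within the 4 lowest, Mrpl41, Mrpl47 and Mrpl57 overlapped one another in their library values. Along the whole order of 78 genes, 73 of the 77 pairs of neighbours overlapped in their library values and 4 did not. The median coefficient of variation over the 4 libraries was 6.92%, and it was highest for Mrpl17 at 22.9%.

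**Figure D2:**
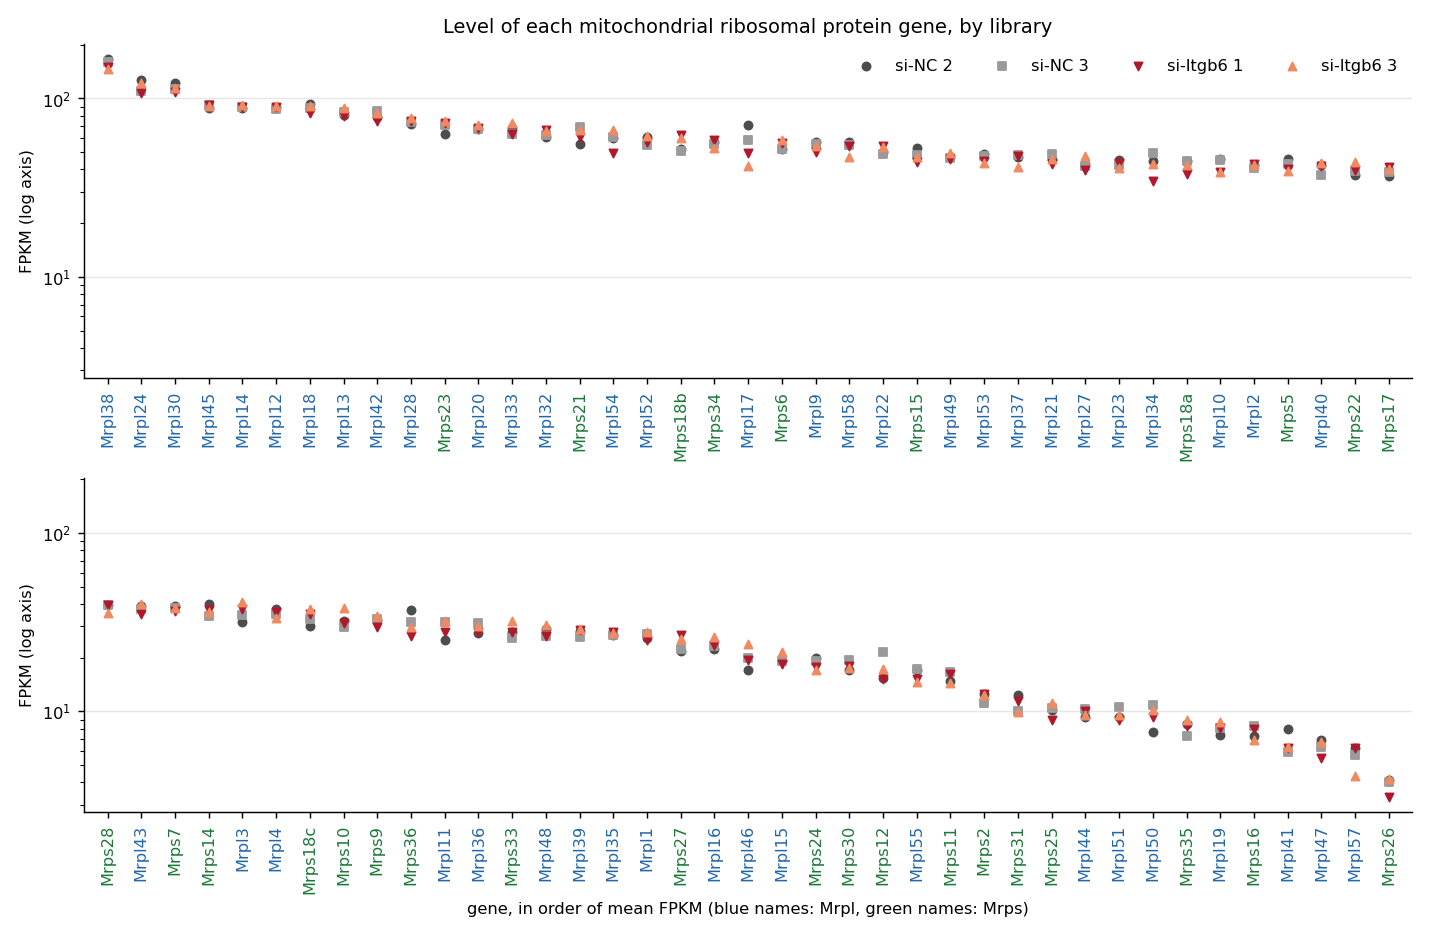
FPKM of each Mrpl and Mrps gene (log axis) in each of the 4 libraries, with genes in order of mean FPKM from left to right and from the upper to the lower row. Mrpl38 stands alone at the top (147 to 166 FPKM), Mrps26 is lowest (3.30 to 4.16 FPKM), and most neighbours in the order overlap.

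The comparison of si-Itgb6 with si-NC asked whether these genes changed where the siRNA against Itgb6 had been used. The mitochondrial ribosomal protein genes stayed close to their control levels: 1 gene, Mrps18b, was higher, and 1 gene, Mrpl17, was lower, while 76 were not called. edgeR's quasi-likelihood test covered 11727 genes, and a gene was called where its p before adjustment was under 0.05 and it changed by more than 1.2-fold (0.263 on the log2 scale). The members called were 2 of 78 (2.56%), against a background of 9.57% of all genes tested. In the lower direction it was 1 of 78 against 5.2% of all genes, and in the higher direction 1 of 78 against 4.37%. At a Benjamini-Hochberg adjusted p under 0.05, 1 member (1.28%) passed, against 4.62% of all genes. The CPM values of the groups did not overlap for 29 members (37.2%), against 49.2% of all genes tested, and 7 members (8.97%) had an unadjusted p under 0.05, against 18.4%.

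The log2 fold changes of the 78 genes ranged from -0.26 to 0.26, so none reached beyond 0.264 in either direction. Their median was 0.0100, with 42 genes above and 36 below 0, and that of all genes tested was 0.00017. The middle of the distribution, between the lower and upper quartiles, ran from -0.070 to 0.081 for the members and from -0.13 to 0.12 for all genes. The median was 0.0106 over Mrpl genes and 0.0058 over Mrps genes. For 37 members (47.4%) the 95% interval lay wholly inside a 1.2-fold change in either direction, and for 41 it reached past it. The corresponding share of all genes tested was 27.7%, at a median level of 24.96 CPM and a median SE of 0.12, whereas members had a median of 40.4 CPM and a median SE of 0.09. For 74 members the interval stayed within 0.5 on the log2 scale, and the other 4 were Mrpl41, Mrps36, Mrpl34 and Mrpl46.

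**Figure D3:**
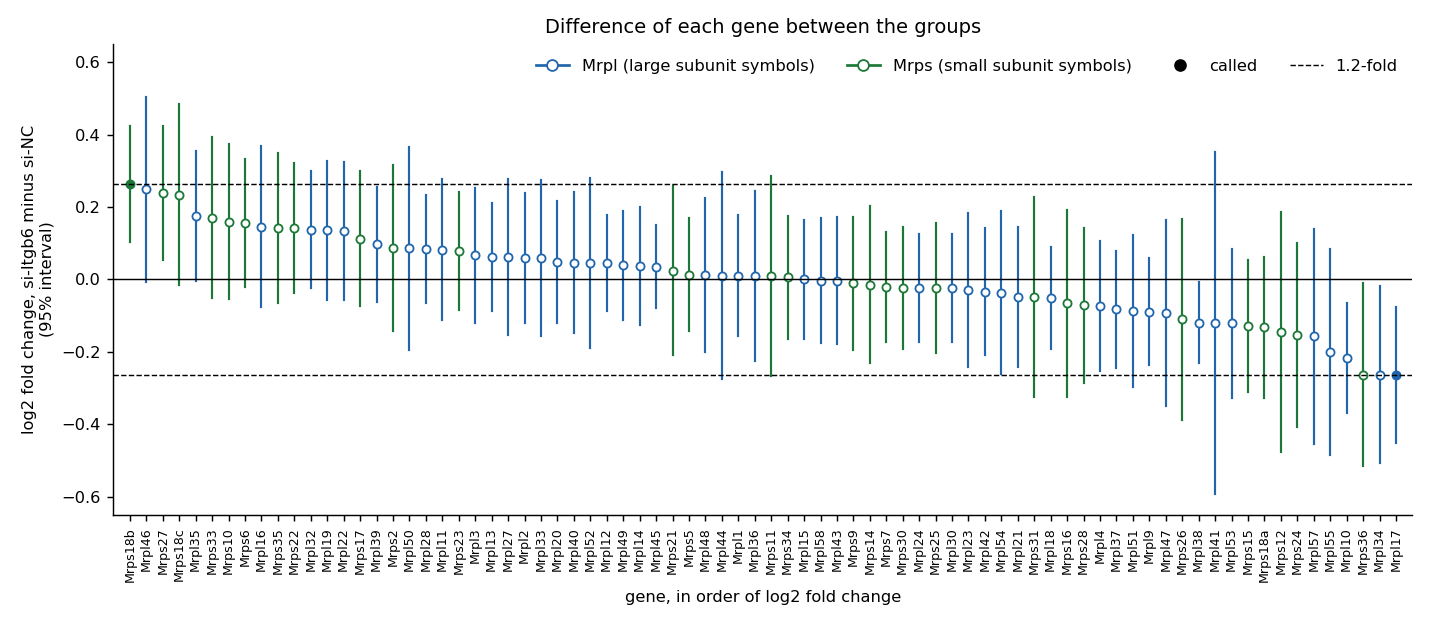
Log2 fold change of each Mrpl (blue) and Mrps (green) gene, si-Itgb6 minus si-NC, with its 95% interval, in order of size; dashed lines mark a 1.2-fold change. The filled points, Mrps18b and Mrpl17, are called, and all 78 points lie between -0.26 and 0.26.

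Summed over the 78 genes, the members took 3809 and 3784 CPM in si-NC replicates 2 and 3, and 3704 and 3927 CPM in si-Itgb6 replicates 1 and 3. The si-Itgb6 libraries lay on either side of both si-NC libraries. The median deviation of a member from its own mean was -0.036 in si-Itgb6 replicate 1 and 0.059 in si-Itgb6 replicate 3 on the log2 scale, against 0.00097 and -0.010 in the si-NC libraries. The same order was seen for nuclear oxidative phosphorylation genes, with -0.034 and 0.067 in si-Itgb6 replicates 1 and 3. Without si-Itgb6 replicate 1 the median log2 fold change of members was 0.066, with 2 genes called lower and 4 higher, and without si-Itgb6 replicate 3 it was -0.011, with 3 lower and 2 higher.

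Among the proteins at the base and along the L7/L12 stalk, where translation factors dock, Mrpl10, which anchors the stalk, was at 78.0 and 77.1 CPM in si-NC and at 66.1 and 67.4 CPM in si-Itgb6. The groups were apart and replicates were close, with a log2 fold change of -0.22 ± 0.07 (unadjusted p = 0.0067, adjusted p = 0.091), short of the 1.2-fold threshold. Its partner at the stalk base, Mrpl11, was at 35.6 and 40.2 CPM against 38.4 and 41.9 CPM, and its groups overlapped. The stalk protein Mrpl12 was at 117 and 114 CPM against 117 and 121 CPM, also with overlap (log2 fold change 0.05 ± 0.07). None of the 3 stalk genes was called by edgeR or DESeq2, where edgeR called 9.57% of all genes tested.

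Of the 6 genes around the exit of the peptide tunnel, 1 was called (16.7%, against 9.57% of all genes tested). Mrpl17 (ENSMUSG00000030879, chromosome 7, GRCm38 105803206 to 105811099, minus strand) was at 46.5 and 42.0 CPM in si-NC and at 37.7 and 36.1 CPM in si-Itgb6. Both si-Itgb6 libraries lay below both si-NC libraries, and the log2 fold change was -0.26 ± 0.09 (95% interval -0.45 to -0.08, unadjusted p = 0.0075, adjusted p = 0.096). In FPKM the same gene was at 71.4 and 58.7 against 49.3 and 42.1, a log2 ratio of group means of -0.51. The length implied by counts over FPKM, set relative to the median gene of each library, was 0.248 and 0.27 in si-NC and 0.288 and 0.319 in si-Itgb6, so the size of its decrease depended on the unit. Leaving out si-NC replicate 2 gave -0.19 and leaving out si-Itgb6 replicate 3 gave -0.23 on the log2 scale, and the call was lost in each case. It was also lost with DESeq2 (-0.262), with RLE scaling factors (-0.261) and with a filter of at least 10 counts in every library (-0.263), each just short of 1.2-fold. The other tunnel exit genes lay between -0.09 for Mrpl47 and 0.13 for Mrpl22, with Mrpl45 at 0.04 ± 0.06, Mrpl24 at -0.02 ± 0.07 and Mrpl23 at -0.03 ± 0.10.

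The 4 genes of the decoding region and messenger path of the small subunit showed no call by edgeR or DESeq2. They had 0 unadjusted p under 0.05 and overlapped between the groups. Of all genes tested, edgeR called 9.57%, 18.4% had an unadjusted p under 0.05 and 49.2% did not overlap. Mrps12, the decoding centre protein in which bacterial streptomycin resistance arises, was at 10.98 and 15.5 CPM in si-NC and at 10.98 and 12.9 CPM in si-Itgb6. Its replicates differed more than its groups (log2 fold change -0.15 ± 0.16). Mrps5 was at 77.4 and 69.9 against 73.7 and 74.8 CPM, Mrps7 at 75.6 and 74.2 against 71.8 and 75.6 CPM, and Mrps11 at 14.4 and 16.4 against 16.2 and 14.9 CPM. The log2 fold changes of the latter 3 genes lay between -0.022 and 0.013.

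The mammalian genome carries 3 paralogs of the bacterial protein S18, and each was apart between the groups in its CPM values, as were 49.2% of all genes tested. Mrps18b (ENSMUSG00000024436, chromosome 17, GRCm38 35910379 to 35916389, minus strand), was at 55.2 and 54.0 CPM in si-NC and at 66.0 and 65.1 CPM in si-Itgb6. The gap between groups was wider than that between replicates, with a log2 fold change of 0.26 ± 0.08 (95% interval 0.10 to 0.42, unadjusted p = 0.0021, adjusted p = 0.048). Its adjusted p ranged from 0.032 to 0.38 over the alternatives, and when si-NC replicate 3 or, in turn, si-Itgb6 replicate 1 was left out, or with library size as the only scaling, its log2 fold change was 0.25 and no longer past the 1.2-fold threshold. Mrps18c was at 18.2 and 19.7 against 21.2 and 23.4 CPM, a log2 fold change of 0.23 ± 0.12 that was not called (unadjusted p = 0.064). Mrps18a, whose protein sits in the large subunit in spite of its symbol, was at 39.3 and 38.9 against 33.4 and 37.8 CPM, with a log2 fold change of -0.13 ± 0.10 (unadjusted p = 0.18).

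Further members have a place or an activity of their own. Mrps27, a pentatricopeptide repeat protein of the small subunit, was at 37.2 and 37.1 CPM in si-NC and at 45.2 and 42.5 CPM in si-Itgb6. Its groups were apart, with a log2 fold change of 0.24 ± 0.09 (unadjusted p = 0.014, adjusted p = 0.14), short of 1.2-fold. Mrps36, whose product is now known as a subunit of the 2-oxoglutarate dehydrogenase complex and not of the ribosome, was at 24.7 and 21.4 against 17.9 and 20.4 CPM (log2 fold change -0.26 ± 0.12, unadjusted p = 0.043). It lay just inside the fold threshold, at -0.2625. Mrpl58, a peptidyl-tRNA hydrolase that frees stalled ribosomes, was at 52.1 and 49.3 against 52.8 and 48.4 CPM and overlapped. Mrpl44, which carries a ribonuclease III-like fold, Mrpl41, Mrpl37 and Mrps30 lay between -0.12 and 0.01 on the log2 scale and overlapped between the groups.

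Mrpl38 and Mrpl34 completed the 7 genes with an unadjusted p under 0.05, and Mrpl34 and Mrpl46 are named because of their values. Mrpl38, the highest member by FPKM, was at 233 and 224 CPM in si-NC and at 211 and 210 CPM in si-Itgb6 (log2 fold change -0.12 ± 0.06, unadjusted p = 0.039). Mrpl34 was at 26.9 and 30.0 against 20.8 and 26.5 CPM, with a log2 fold change of -0.2626 (SE 0.12, unadjusted p = 0.035) that lay just inside the threshold. It ranged from -0.45 to -0.10 when 1 library was left out. Mrpl46 was at 19.2 and 22.4 against 22.0 and 27.5 CPM and its groups overlapped (log2 fold change 0.25 ± 0.13).

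**Figure D4:**
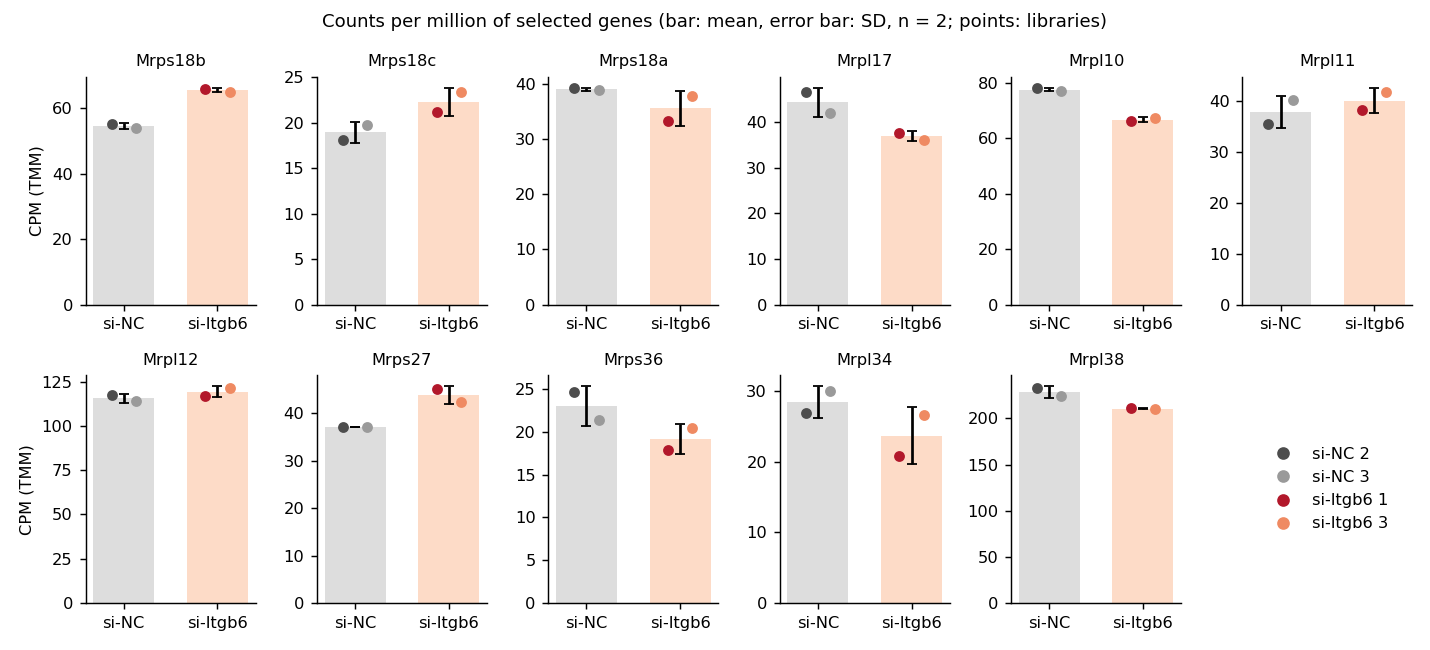
CPM after TMM scaling of 11 genes in each library (points), with the mean (bar) and SD (error bar, n = 2) of si-NC in grey and si-Itgb6 in orange. Mrps18b and Mrps27 are higher and Mrpl17 and Mrpl10 lower in both si-Itgb6 libraries, and the points of Mrpl11 and Mrpl12 overlap between the groups.

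Grouped by origin, each group of members held 0 or 1 call, beside 9.57% of all genes tested. Of the S18 paralogs, Mrps18c was grouped with the genes that have a bacterial counterpart, since its protein takes the place of S18, and Mrps18a and Mrps18b with those particular to mitochondria, after the current naming of these proteins. Of 30 large subunit genes with a bacterial counterpart, 1 was lower (Mrpl17, 3.33%) and 0 higher, with a median log2 fold change of 0.024. Of 21 large subunit genes particular to mitochondria, 0 were called, and the median was -0.0036. The 16 small subunit genes with a bacterial counterpart had 0 calls and a median of -0.0007. Of 10 small subunit genes particular to mitochondria, 1 was higher (Mrps18b, 10.0%) and the median was 0.11, with 7 of 10 above 0. Among 13 members in which inherited defects cause combined oxidative phosphorylation deficiency in people, 0 were called, and log2 fold changes ran from -0.07 (Mrps28) to 0.14 (Mrps22). The 5 mitoribosomal proteins named by other symbols (Dap3, Ptcd3, Chchd1, Aurkaip1 and Gadd45gip1) had 0 calls and ran from -0.20 to 0.21. In these lists without a call by edgeR, the genes with an unadjusted p under 0.05 numbered 1 of 21, 0 of 16, 0 of 13 and 2 of 5 in the order given, and DESeq2 called 0 in each.

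Among the factors that build the ribosome, calls went in both directions. Of 25 assembly genes, 4 were lower and 2 higher (24.0%, against 9.57% of all genes tested), with a median of 0.096. Dhx30, an RNA helicase of mitochondrial RNA granules, was at 82.5 and 81.2 CPM in si-NC and at 66.4 and 65.5 CPM in si-Itgb6, a log2 fold change of -0.31 ± 0.07 (adjusted p = 0.010). Mpv17l2, an inner membrane protein bound to the ribosome, fell by 0.43 on the log2 scale (SE 0.12, adjusted p = 0.036), from 23.3 and 23.1 to 16.9 and 17.6 CPM. The ribosomal RNA methyltransferase gene Mrm1 (log2 fold change -0.61 ± 0.20) and the GTPase gene Mtg2 (-0.33 ± 0.16) were lower as well. Higher were Eral1, which binds the small ribosomal RNA (0.32 ± 0.12), and Fastkd2 (0.33 ± 0.13). With GC and length trends removed, Dhx30 was at -0.21 and not called. Calls were lost for Eral1 when si-NC replicate 2 (0.24) or, in turn, si-Itgb6 replicate 3 (0.18) was left out, and for Fastkd2 when si-NC replicate 3 (0.26) or, in turn, si-Itgb6 replicate 3 (0.23) was. Mtg2 lost its call without si-NC replicate 3 (-0.27), si-Itgb6 replicate 1 (-0.33) or si-Itgb6 replicate 3 (-0.33). Whether assembly genes and ribosomal protein genes differ as groups was not tested.

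Of 20 genes for mitochondrial tRNA charging, 1 was lower and 2 were higher. Vars2, which charges valine tRNA, was at 33.1 and 30.7 CPM in si-NC and at 22.1 and 20.8 CPM in si-Itgb6 (log2 fold change -0.57 ± 0.11, adjusted p = 0.0015). Mars2, which charges methionine tRNA, was at 3.50 and 3.07 against 5.43 and 5.53 CPM (0.74 ± 0.25, adjusted p = 0.081), and Wars2, for tryptophan, had 0.41 ± 0.16. Wars2 lost its call without si-NC replicate 2 (0.38), si-NC replicate 3 (0.43) or si-Itgb6 replicate 3 (0.14). No call was made among 15 translation factor genes, which include Tufm (0.06 ± 0.06) and Gfm1 (-0.07 ± 0.07), or among 10 genes of mitochondrial DNA transcription and replication, such as Tfam (0.03 ± 0.09). In both lists 0 genes had an unadjusted p under 0.05, against 18.4% of all genes tested, and DESeq2 called 0. Of 10 genes for factors that drive nuclear mitochondrial genes, 1 was called (10.0%, against 9.57% of all genes tested). It was Gabpb1, the beta subunit of GABP, which was lower (41.9 and 39.6 against 31.1 and 35.2 CPM, log2 fold change -0.30 ± 0.10, adjusted p = 0.073). Its call was lost when si-NC replicate 2 (-0.26) or, in turn, si-Itgb6 replicate 1 (-0.21) was left out. Gabpa (0.10 ± 0.09), Nrf1 (-0.17 ± 0.08) and Yy1 (-0.03 ± 0.06) were not called.

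The messengers that this ribosome translates were mostly higher in si-Itgb6. Of the 13 messengers encoded by mitochondrial DNA, 9 were called higher (69.2%, against 4.37% of all genes tested) and 0 lower. All 13 had a log2 fold change above 0, and the median was 0.39. The cytochrome c oxidase messenger mt-Co2 was at 173 and 192 CPM in si-NC and at 225 and 260 CPM in si-Itgb6 (log2 fold change 0.41 ± 0.06, adjusted p = 0.00013). The complex I messenger mt-Nd2 was at 62.5 and 68.6 against 94.8 and 88.3 CPM (0.48 ± 0.08, adjusted p = 0.00017). The cytochrome b messenger mt-Cytb was at 151 and 153 against 196 and 202 CPM (0.39 ± 0.06), and the ATP synthase messenger mt-Atp6 at 147 and 158 against 190 and 187 CPM (0.30 ± 0.06). The remaining calls were mt-Nd1 (0.39), mt-Nd3 (0.93), mt-Nd4 (0.36), mt-Nd4l (0.46) and mt-Co3 (0.38). Calls were lost without si-NC replicate 2 for mt-Nd3 (0.57), mt-Nd4l (0.34) and mt-Atp6 (0.25), and without si-Itgb6 replicate 3 for mt-Nd4l (0.37). The messenger mt-Co1, by far the most abundant at 23020 and 23910 against 27680 and 27620 CPM, had 0.24 ± 0.03, under the 1.2-fold threshold.

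The summed CPM of these 13 messengers, most of it from mt-Co1, was 6.42 and 6.72 times that of the 78 members in si-NC and 7.98 and 7.51 times in si-Itgb6. Both si-Itgb6 ratios lay above both si-NC ratios, a difference of 0.24 on the log2 scale. With 2 libraries against 2 there are 6 ways to split them, and an exact two-sided permutation test cannot go below p = 0.333. The mitochondrial messengers are poor in G and C (median 37.1%, against 49.8% for members and 49.8% for all genes tested). When trends with GC content and length were removed from each library, 2 of 13 stayed called, with a median of 0.21, and the median of members was -0.0014. The part of GC content in the difference was not tested further, and that of the selection of the libraries for poly(A) was not tested.

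Among cytosolic ribosomal protein genes, 1 of 80 was called (1.25%, against 9.57% of all genes tested). It was Rps18 (0.27 ± 0.10, lost without si-NC replicate 2 at 0.15 and without si-Itgb6 replicate 3 at 0.18). Of the 80 genes, 71 lay above 0, and the median was 0.061. An unadjusted p under 0.05 was found for 19 of 80 (23.8%), against 18.4% of all genes tested, and 4 passed an adjusted p under 0.05 (Rpl10, Rps15a, Rpl21 and Rpl36a, at 0.17 to 0.24 on the log2 scale). Among 78 nuclear genes of oxidative phosphorylation subunits, 0 were called by edgeR's quasi-likelihood test at the same thresholds, 6 had an unadjusted p under 0.05, DESeq2 called 0, and the median was 0.024. Without si-Itgb6 replicate 3 these medians were 0.011 for cytosolic ribosomal protein genes and -0.021 for oxidative phosphorylation genes, and without si-Itgb6 replicate 1 they were 0.106 and 0.078. In neither list, nor among the members, did the median move as far as that of the mitochondrial messengers.

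**Figure D5:**
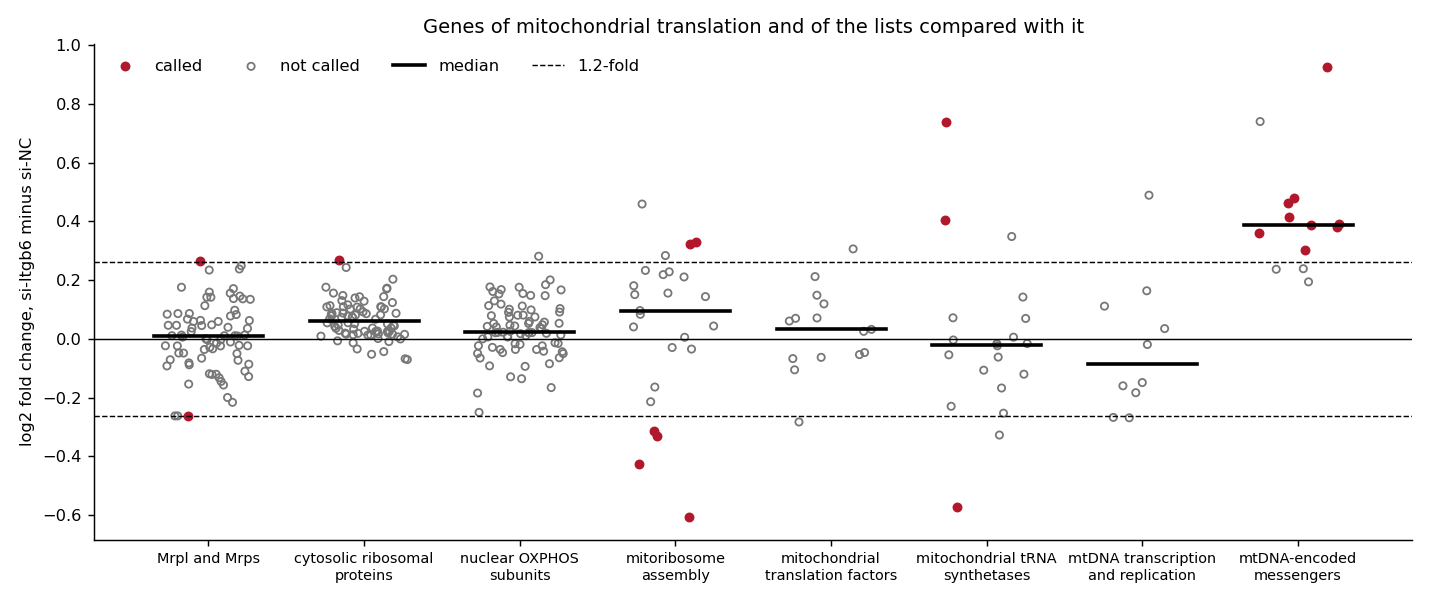
Log2 fold change, si-Itgb6 minus si-NC, of each gene tested in 8 lists, with called genes filled, list medians as bars and a 1.2-fold change as dashed lines. The Mrpl and Mrps genes lie about a median of 0.0100, with an SD of 0.12. That SD was 0.065 for cytosolic ribosomal protein genes and 0.094 for nuclear oxidative phosphorylation genes. All 13 messengers encoded by mitochondrial DNA lie above 0 with a median of 0.39.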

How the data were processed

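RNA-sequencing libraries of TKPTS cells after hypoxia and reoxygenation were analysed, 2 per group as the labels give them. The libraries were paired-end, selected for poly(A) and carry no strand. The authors deposited estimated counts per gene, without normalization and, in each library, fractional for 1447 to 1500 genes, and FPKM values, which the authors scaled to transcript length and mapped fragments. The aligner, counter, genome build and annotation are not given in the sources used here. The study's methods mention a cluster analysis of the samples. Whether it led to any being left out is not given in the sources used here.

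Each estimated count was rounded to the nearest whole number. The filterByExpr function of edgeR, at a minimum of 10 counts and 15 in all, passed 11727 genes of the 22063. TMM normalization and the quasi-likelihood test of edgeR 4.0.16 (R 4.3.3) were applied to the whole table, with Benjamini-Hochberg adjustment over all genes tested. Calls used the study's stated thresholds, p under 0.05 before adjustment with a change above 1.2-fold. The test was first tried on simulated counts. SEs derive from the fold change and the F statistic, and intervals are at 95% and cover the spread between libraries. The common biological coefficient of variation was 0.0551. Replicates differed beyond sampling noise, by a chi-square of 3.21 (si-NC) and 4.04 (si-Itgb6) per gene. FPKM entered no test and served for levels only.

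Coordinates, exon overlaps and transcript GC content and length are from GENCODE vM21 (GRCm38), and promoter windows and their starts from RefSeq (GRCm38.p6), which may not be the annotations the authors used.

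The members, gene lists and tests were chosen with earlier results of these data known. The text names Itgb6, every member called, the 5 highest and 5 lowest members by FPKM, members of the role lists (stalk, tunnel exit, decoding, S18 paralogs, other roles, inherited disease) and called genes of the other lists. Mrpl3, Mrpl34, Mrpl35, Mrpl46, neighbours at member starts, marker genes and uncalled genes of other lists (such as Tufm, Gfm1, Tfam, Gabpa, Nrf1, Yy1, mt-Co1 and Rpl10) are named outside this rule, after their values were seen. Alternatives were DESeq2 1.42.0, edgeR's likelihood ratio and exact tests, other scaling, filters and thresholds, GC and length offsets, and leaving out each library.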

Additional observations from a re-analysis of the deposited data

How the results depend on the processing

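With DESeq2, 383 of all genes were called lower and 320 higher, at adjusted p under 0.05 295 and 247, and at a fold change over 1.5 110 and 125, against 610 and 512. Leaving out each library gave 402 to 768 lower and 338 to 645 higher. Members called lower (1 in the report) numbered 0 with DESeq2, RLE factors, at least 10 counts in every library, an adjusted p under 0.05 or a fold change over 1.5, 2 with GC and length trends removed, 3 with library size only, and 2 to 3 when each library was left out. Members called higher (1) numbered 0 with library size only or a fold change over 1.5, and 1 to 4 when each library was left out. Mrpl17 and Mrps18b lie at the 1.2-fold threshold, so small changes of scale move them across it.

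Leaving out each library, the median log2 fold change was -0.0105 to 0.0663 for all members, -0.0282 to 0.069 for Mrpl and 0.0206 to 0.0543 for Mrps genes. That of all members was -0.00454 with library size only and -0.00137 with GC and length trends removed. No other alternative moved these medians by more than the SD between replicates (0.0477 for all members). Genes of the other mitochondrial translation lists called (5 lower, 4 higher) numbered 2 higher with DESeq2, 3 lower with GC and length trends removed, 3 and 0 at an adjusted p under 0.05, 1 and 1 at a fold change over 1.5, and 5 to 8 lower and 3 to 7 higher when each library was left out. Mitochondrial messengers called higher (9) numbered 2 with GC and length trends removed and 1 at a fold change over 1.5, settings added after the data had been seen for this list.

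The sign turned with library size only for Mrps5 (-0.0017), Mrps11 (-0.0047) and Mrpl44 (-0.0039), and with GC and length trends removed for Mrpl23 (0.0445), Mrps7 (0.0451) and mt-Nd6 (-0.0486). It also turned when 1 library was left out for Itgb6 (-0.10 to 0.0909), Mrpl11 (-0.00173 to 0.18), Mrpl23 (-0.0681 to 0.0133), Mrpl24 (-0.12 to 0.0792), Mrpl47 (-0.26 to 0.0535), Mrps12 (-0.37 to 0.13), Mrps5 (-0.0558 to 0.087), Mrps7 (-0.0572 to 0.0135), Mrps11 (-0.0823 to 0.11), Mrpl58 (-0.0669 to 0.0611), Mrpl44 (-0.0575 to 0.0862), Mrpl41 (-0.32 to 0.10), Mrpl37 (-0.18 to 0.0121), Mrps30 (-0.12 to 0.0792), Mrpl30 (-0.0906 to 0.04), Mrps26 (-0.30 to 0.0543), Mrpl57 (-0.43 to 0.0777) and Mrps16 (-0.16 to 0.0377). None of these genes was called. Of the 5 highest members by FPKM, 3 were among the 5 highest by CPM per kilobase of the longest transcript (Spearman's rho 0.748 over 78 genes that share these libraries). Without the 12 members whose counts are not whole the median was 0.0106, and over structural subunits only it was 0.00761. No paired analysis was possible because the groups share 1 replicate number. The median SE of a member, 0.09 on the log2 scale at 75 to 3873 counts per library, limits what could be called.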

Other observations

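Of the 78 members, 5 differed by over 0.1 on the log2 scale between the change in counts and the change in FPKM. For Mrpl17 the log2 difference was -0.51 in FPKM and -0.26 in counts, for Mrpl3 0.24 and 0.07, for Mrps5 -0.15 and 0.01, for Mrpl58 -0.15 and -0.0032, and for Mrpl35 0.05 and 0.18. The length implied by counts over FPKM, relative to the median gene, was 0.647 and 0.617 for Mrps5 in si-NC replicates 2 and 3 and 0.688 and 0.709 in si-Itgb6 replicates 1 and 3. For Mrpl3 it was 0.488 and 0.431 against 0.405 and 0.4. Estimated isoform shares were not analysed here.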
